A study of Mus musculus with 21 samples.

Results

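The genes described here are Fgf7, Fgf10 and Fgf18, which encode secreted fibroblast growth factors. They were taken by their symbols, and all 3 were found among the 20284 genes of the table. No cut on a measured value picked them, but earlier results of these data were known when they were chosen. They were followed across the wells of a single-cell RNA experiment on back skin of CD1 mouse embryos at embryonic day 15, an age at which dermal fibroblasts gather into dermal condensates, the cell clusters that signal to the epidermis to make hair follicles. Live cells sorted by flow cytometry were processed by SORT-seq, in which each RNA molecule carries a random barcode (unique molecular identifier, UMI). Well names gave 4 populations of cells: 149 DC0, 152 DC1 and 151 DC2 wells, called condensate wells here, and 1371 wells named Fb for fibroblast. No genotype or treatment separates them, and the labels define neither DC0 nor the sort gates. The study found its condensate stages by clustering cells with the StemID algorithm. Should the names of the wells come from that clustering, expression itself helped to define the groups compared here.

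FGFs bind receptor tyrosine kinases at the cell surface together with heparan sulfate chains, and the signal runs through the MAP kinase cascade to targets such as Etv4, Etv5 and Spry genes, the last of which damp it. Fgf7 and Fgf10 belong to the same subfamily, are made by mesenchyme and act on the epithelial splice form of Fgfr2, a route used between dermis and epidermis. Fgf18 belongs to the Fgf8 subfamily, which acts through mesenchymal splice forms of the receptors, and is known from bone and lung development and from the resting phase of adult mouse hair.

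In the mm10 build (GRCm38, GENCODE annotation) Fgf10 lies on the plus strand at chr13:118669791-118792115 and its principal transcript has 3 exons. Fgf7 lies on the plus strand at chr2:126034658-126091185 with 3 exons, and Fgf18 on the minus strand at chr11:33117430-33147400 with 5 exons. The promoter windows below, from 250 bases before to 50 after the start that RefSeq gives for each gene (GRCm38.p6), are shown because Fgf10 was highest in condensate wells, and Fgf7 and Fgf18 in Fb wells. Capitals mark CTTTG or, for the other strand, CAAAG, the core of the sequence that Tcf/Lef factors of the WNT pathway bind.
Fgf10 (chr13:118714449-118714748, plus strand): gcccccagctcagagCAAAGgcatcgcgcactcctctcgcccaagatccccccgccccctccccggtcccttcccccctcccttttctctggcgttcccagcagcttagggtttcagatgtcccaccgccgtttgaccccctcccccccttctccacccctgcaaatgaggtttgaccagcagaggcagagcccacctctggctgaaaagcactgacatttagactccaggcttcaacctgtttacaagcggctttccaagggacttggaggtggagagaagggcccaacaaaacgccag
Fgf7 (chr2:126034408-126034707, plus strand): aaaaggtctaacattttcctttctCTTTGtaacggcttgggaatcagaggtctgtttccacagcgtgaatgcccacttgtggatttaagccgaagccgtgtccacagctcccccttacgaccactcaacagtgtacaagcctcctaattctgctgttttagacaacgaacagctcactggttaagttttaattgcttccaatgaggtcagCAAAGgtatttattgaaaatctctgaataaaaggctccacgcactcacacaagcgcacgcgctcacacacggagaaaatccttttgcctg
Fgf18 (chr11:33147351-33147650, minus strand): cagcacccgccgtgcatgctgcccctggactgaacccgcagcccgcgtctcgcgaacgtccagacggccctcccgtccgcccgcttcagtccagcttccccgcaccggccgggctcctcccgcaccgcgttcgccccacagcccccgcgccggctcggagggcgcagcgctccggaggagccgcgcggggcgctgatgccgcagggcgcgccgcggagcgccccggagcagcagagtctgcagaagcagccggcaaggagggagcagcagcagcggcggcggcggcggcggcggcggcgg

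The Fgf10 window holds 1 such core, the Fgf7 window 2 and the Fgf18 window 0, and 53.9% of 32851 RefSeq promoter windows of the same length hold at least 1. The longer match CTTTGAT, the Gli motif GACCACC and the TATAAA box, each searched on both strands, had no match in any of the 3 windows, against 3.73%, 2.80% and 13.6% of all windows. The motifs overlap only in that CTTTGAT holds the core. The RefSeq start of Fgf10 lies inside the gene span given above. GC content was 60.7% for Fgf10, 45.7% for Fgf7 and 78.7% for Fgf18, where the median window had 52.7%. The Fgf18 window holds 47 CG dinucleotides, the Fgf10 window 10 and the Fgf7 window 11.

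Wells came from 9 libraries of 1447590 to 6424841 UMIs. Libraries 1 to 7 held all Fb wells and 9 to 15 condensate wells each, library 8 held 246 DC0 and DC2 wells and library 9 DC1 wells alone. Nothing in the labels ties a library to an animal, so the p-values reflect at most variation among libraries, which may be technical. Median depth per well was 12773 UMIs in DC0, 10469 in DC1, 8333 in DC2 and 18509 in Fb. The markers went with the names, which is no independent check if clustering gave the names. The marker lists were also chosen with earlier results of these data known. All 21 condensate markers were higher in condensate wells (edgeR, adjusted p under 0.05), where 10.6% of all genes tested were. Their summed level was 5041 to 7806 CPM (UMIs scaled to the total of a sum) against 459.6 to 545 CPM in Fb wells. Of 11 fibroblast markers 10 were lower, where 13.5% of all genes tested were. Wells named ERCC, for the spike-in RNA, numbered 16 per library and had 3 UMIs of Fgf10, 3 of Fgf7 and 1 of Fgf18 in all.

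Condensate wells had about 9.8 times as much Fgf10 RNA, as a share of all UMIs, as Fb wells and almost no Fgf7 or Fgf18, while Fb wells held all 3 ligands at low levels. Fgf10, which drives budding of lung and limb epithelium, ranged over libraries 1 to 7 from 259.7 CPM through a median of 369.5 to 687 CPM in condensate wells, and from 23.0 through 38.4 to 55.7 CPM in Fb wells. The ranges did not overlap, and condensate wells were higher in 7 of 7 libraries. The means were 406.2 ± 138 CPM in condensate wells and 38.6 ± 11.01 CPM in Fb wells (SD, n = 7 libraries each). The log2 fold change was 3.27 (SE 0.153, 95% interval 2.96 to 3.57, adjusted p = 7.22e-29) in edgeR's quasi-likelihood test on UMIs summed per library and population, with the library as a block. Of 12029 genes tested, 1273 were higher (10.6%), Fgf10 among them. Libraries 8 and 9, which have no Fb wells to set beside them, gave 428.6 and 536.6 CPM in condensate wells. In the 4 libraries that shared a sequencing run the log2 fold change was 3.07, with 381.8 ± 58.4 CPM in condensate wells and 42.5 ± 11.9 CPM in Fb wells (SD, n = 4). In the other 3 it was 3.53, with 438.7 ± 221.9 CPM in condensate wells and 33.3 ± 8.95 CPM in Fb wells (SD, n = 3).

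Fgf7, also known as keratinocyte growth factor, had 0 UMIs in the 84 condensate wells of libraries 1 to 7, where the Fb level would have given 23.3. In the Fb wells of the same libraries it ranged from 14.1 through 17.4 to 19.7 CPM, a mean of 17.6 ± 2.1 CPM (SD, n = 7), from 538 UMIs. Every Fb library was above every condensate library as counted. With 3 UMIs taken as the limit that a count of 0 allows, condensate wells of libraries 1, 2 and 4 could hold up to 33.2, 52.8 and 22.3 CPM. Those limits lie above every Fb library, so these libraries do not show the difference singly. With the same limit over the 7 libraries pooled, Fgf7 was at least 7.77-fold lower in these 84 condensate wells. It was among the 1619 genes called lower (13.5% of those tested, adjusted p = 3.73e-06). The condensate wells of libraries 8 and 9 held 12 and 9 UMIs (4.23 and 6.26 CPM), a level above 0 but below every Fb library. Pooled, these 368 wells had 4.92 CPM against 17.5 CPM in Fb wells, a smaller fold than the 7.77 of libraries 1 to 7. That last comparison is across plates and was not tested.

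Fgf18 showed the same split. It had 1 UMI in the condensate wells of libraries 1 to 7 (library 5, a DC0 well), against 449 UMIs in Fb wells. Its level in Fb wells ranged from 8.02 through 16.3 to 17.6 CPM, a mean of 14.1 ± 3.74 CPM (SD, n = 7). The single UMI puts Fgf18 19.5-fold lower in condensate wells, with a 95% counting interval of 3.47 to 770. It too was called lower (adjusted p = 8.39e-05). Without library 5 condensate wells held no UMI of Fgf18 and the fitted log2 fold change, −4.31 with it, was −7.87. Libraries 8 and 9 gave 1.41 and 1.39 CPM from 4 and 2 UMIs. Outside the shared run, where 3 libraries were left, neither Fgf7 (adjusted p = 0.120) nor Fgf18 (adjusted p = 0.247) passed, with 0 UMIs of each in their condensate wells.

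**Figure D1:**
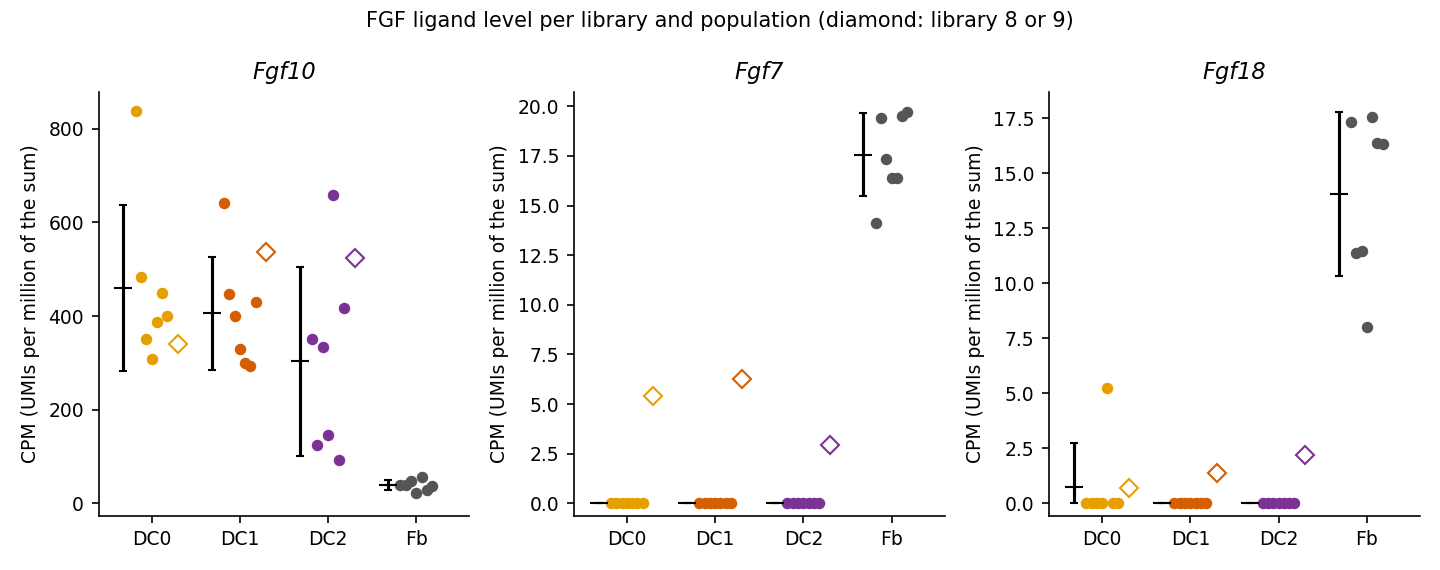
Level of each ligand in CPM (y axis, linear, own scale per gene) in DC0, DC1, DC2 and Fb wells. Each filled point is the sum over the wells of a population in libraries 1 to 7, open diamonds are library 8 or 9, and the black bar to the left is the mean ± SD over libraries 1 to 7 (cut at 0). Fgf10 is high in all 3 condensate populations and Fgf7 and Fgf18 in Fb wells.

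Fgf10 was found in all 3 condensate populations. Fgf10 ranged over libraries 1 to 7 from 309 through 400.5 to 837.9 CPM in DC0 wells, from 293.5 through 400.3 to 641.7 CPM in DC1 wells and from 93.1 through 333 to 659.4 CPM in DC2 wells. Several of these sums rest on few UMIs: 1 UMI each in the DC2 wells of libraries 1 and 6. In a model over all 4 populations and libraries 1 to 8, Fgf10 was higher than in Fb wells in DC0 (3.28, SE 0.240, adjusted p = 1.10e-22), where 3.81% of 12233 genes were called higher. It was also higher in DC1 (3.27, SE 0.242, adjusted p = 1.31e-22), where 5.72% were, and in DC2 (3.17, SE 0.2503, adjusted p = 4.71e-21), where 8.45% were.

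No difference in Fgf10 passed between neighbouring stages. DC1 minus DC0 was −0.00 on the log2 scale (95% interval −0.52 to 0.52, edgeR adjusted p = 1), in a comparison that called 0.425% of genes. DC2 minus DC1 was −0.10 (−0.63 to 0.42, edgeR adjusted p = 0.9501), where 0.948% were called. The difference between DC1 and DC0 was 1.32 (adjusted p = 0.353) with every well thinned to 3000 UMIs, which also left no DC0 sum for library 1, and 1.07 (adjusted p = 0.753) with at least 5 wells per sum. On the only plate with both populations in number, library 8, DC2 wells had 524.6 CPM and DC0 wells 340.3 CPM, and a lone library gives no test.

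Fgf7 and Fgf18 were called lower than in Fb wells in each stage, where 6.85% of genes were called lower in DC0, 6.85% in DC1 and 11.2% in DC2. For Fgf7 the adjusted p was 0.00128 in DC0, 0.00266 in DC1 and 0.000143 in DC2, and for Fgf18 it was 0.00524, 0.00279 and 0.0150 in edgeR. These calls rest on very few wells, 25 DC0, 30 DC1 and 29 DC2 wells in libraries 1 to 7. All 3 for Fgf7 (adjusted p of 0.273, 0.155 and 0.220) and that of Fgf18 in DC2 (0.467) were lost with DESeq2, which gave Fgf18 no adjusted p in DC0 and DC1. The Fgf18 call in DC0 was also lost without library 8 (−2.89, adjusted p = 0.0730), and that in DC2 without library 7 (−3.04, adjusted p = 0.0635). With 0 UMIs in each stage, Fgf7 was at least 2.62-fold lower in DC0, 2.86-fold in DC1 and 2.29-fold in DC2 over those libraries. Fgf18, with a single UMI in DC0, had none in DC1 and DC2, which makes it at least 2.39-fold and 1.91-fold lower there. No fold between stages is given for either ligand, since all stages were at or near that limit.

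The share of wells with a UMI follows depth, so wells were thinned to 3000 UMIs, which left 341 condensate and 1155 Fb wells. Fgf10 was found in 53.9% of DC0, 69.1% of DC1 and 62.1% of DC2 wells, and in 8.23% of Fb wells (95% exact binomial interval 6.71% to 9.96%). The interval of each condensate stage lay above that of Fb. Without thinning the shares were 71.8%, 86.2%, 60.9% and 30.4%. Fgf7 was found in 2.05% of thinned condensate wells (0.8292% to 4.18%) and 3.55% of Fb wells (2.56% to 4.79%), so that this depth does not separate them. Without thinning it was in 3.32% of condensate wells, all of them in libraries 8 and 9, and in 15.1% of Fb wells. Fgf18 was found in 0.293% of thinned condensate wells (0.00742% to 1.62%) and 2.60% of Fb wells (1.76% to 3.69%), and without thinning in 1.33% of condensate and 11.01% of Fb wells. ERCC wells had a UMI of Fgf10 in 1.39%, of Fgf7 in 1.39% and of Fgf18 in 0.694% at a median of 431 UMIs. That is 41.4 CPM of Fgf10, 41.4 CPM of Fgf7 and 13.8 CPM of Fgf18, from 3, 3 and 1 UMIs. Fb wells pooled had 40.3, 17.5 and 14.6 CPM. The intervals for Fgf7 and Fgf18 in unthinned condensate wells (1.87% to 5.41% and 0.489% to 2.87%) overlap those of ERCC wells (0.169% to 4.93% and 0.0176% to 3.81%). The ERCC intervals rest on 2 and 1 wells, at far lower depth than condensate wells (median 10470 UMIs), so this overlap decides nothing. The few UMIs in condensate wells are therefore read neither as expression nor as background. Intervals cover counting error only.

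**Figure D2:**
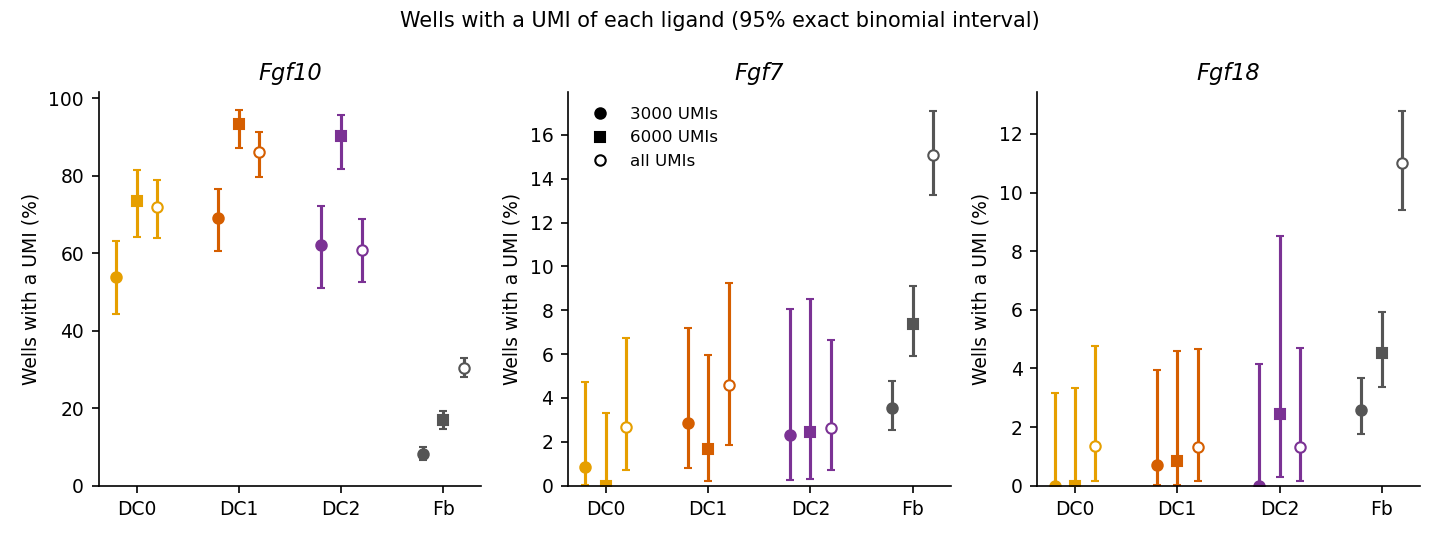
Share of wells with a UMI of each ligand (y axis, percent, own scale per gene) in DC0, DC1, DC2 and Fb wells, with wells thinned to 3000 UMIs (filled circles), to 6000 UMIs (squares) or not thinned (open circles). Bars are 95% exact binomial intervals. Fgf10 marks most condensate wells at every depth, and the Fb shares of all 3 ligands grow with depth.

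Within Fb wells the ligands were unevenly spread. Among wells of at least 3000 UMIs, the 10% with the most UMIs of a ligand held 63.0% of the Fgf10 UMIs, 83.7% of the Fgf7 UMIs and 92.2% of the Fgf18 UMIs. This ranking is by count, not by CPM, so deep wells and ligands found in few wells raise these shares. No such share was computed for an even spread. Fgf18 reached 19 UMIs in a well, and 28 of 1155 wells held 5 or more. If every Fb well had expressed each ligand at the population's level, depth alone would have put a UMI of Fgf10 in 47.7% of wells, of Fgf7 in 29.2% and of Fgf18 in 24.96%, against the 30.4%, 15.1% and 11.01% found. In condensate wells, also not thinned, Fgf10 was closer to even, with 73.0% found and 82.1% so predicted. That contrast depended on depth. At 3000 UMIs Fgf10 was found in 62.2% of condensate wells (72.0% predicted) and 8.23% of Fb wells (9.36% predicted), which does not show it. At 6000 UMIs the shares were 85.5% (92.2% predicted) and 16.9% (19.98% predicted). Of the 1155 Fb wells, 8 reached the Fgf10 level of the median condensate well (380.8 CPM).

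Where the ligands shared a well was described without a test, since wells of a library are not replicates. Of 452 condensate wells, 314 held Fgf10 alone, 3 Fgf7 alone and 0 Fgf18 alone. Another 11 held Fgf10 with Fgf7, 5 Fgf10 with Fgf18, 1 Fgf7 with Fgf18 and 0 all 3. The remaining 26.1% held none, with a median of 961.5 UMIs. The product of both shares within each library gives 11.3 condensate wells for Fgf10 with Fgf7 and 4.69 for Fgf10 with Fgf18. The 11 and 5 found lie near it, so these counts show neither exclusion nor excess. Of 1371 Fb wells, 269 held Fgf10 alone, 64 Fgf7 alone, 36 Fgf18 alone, 58 Fgf10 with Fgf7, 30 Fgf10 with Fgf18, 25 Fgf7 with Fgf18, 60 all 3, and 60.5% held none. The wells with all 3 were deep, with a median of 48880 UMIs against 12700 in those with none. Pooled over libraries, each pair shared more Fb wells than the product of its shares gives at each of the 3 depths, though at 3000 UMIs single libraries fell below it for every pair. In Fb wells thinned to 6000 UMIs, Fgf7 and Fgf18 shared 12 wells where the product of their shares within each library gives 3.45, and the count was above that product in 7 of 7 libraries. Fgf10 and Fgf7 shared 24 wells (product 13.5, above it in 6 of 7 libraries), and Fgf10 and Fgf18 shared 11 (product 8.29, above it in 4 of 7). At 3000 UMIs the pairs shared 4 wells (1.09), 6 (3.39) and 3 (2.84), and without thinning Fgf7 and Fgf18 shared 85 (24.0) and Fgf10 and Fgf18 90 (49.98), with Fgf10 and Fgf7 at 1.77 times their product. The pair Fgf7 and Fgf18 therefore stood at 3.67, 3.47 and 3.54 times the product at the 3 depths.

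**Figure D3:**
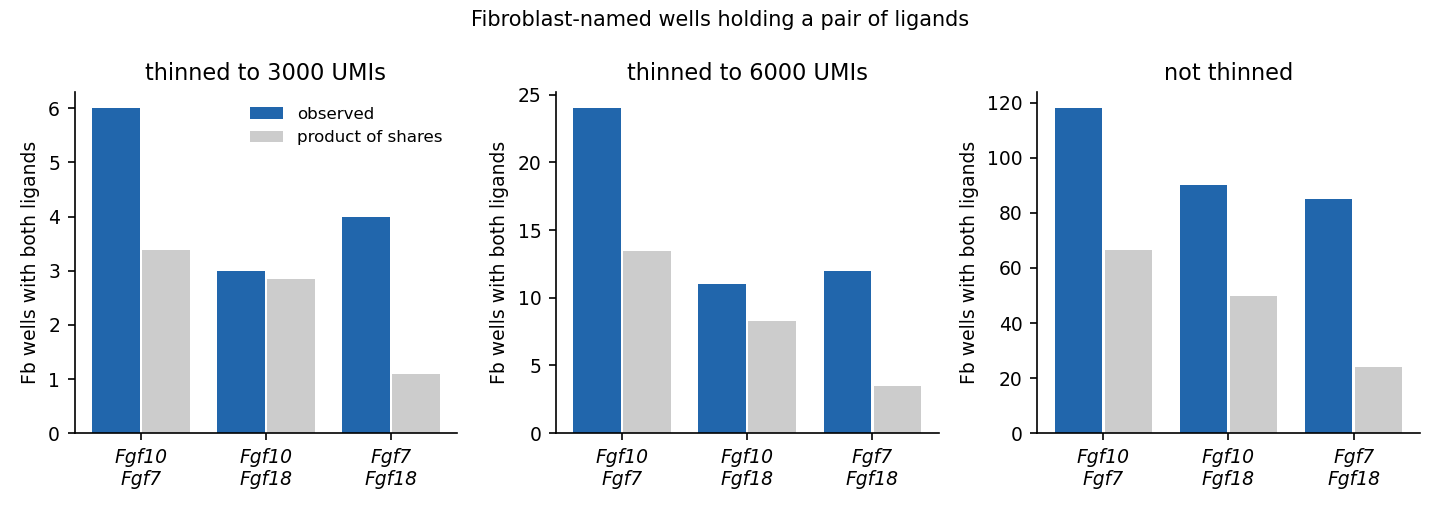
Number of Fb wells that hold both ligands of a pair (blue) and the number given by the product of the 2 shares within each library (grey), at 3 depths with their own y scales. As a ratio, Fgf7 with Fgf18 lies furthest above the product at each depth.

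Fb wells with a ligand were then set against Fb wells without it, to see which other genes went with each. Wells were placed by 3000 of their UMIs, so that deeper wells are not favoured, and all their UMIs were summed per library. A well without a ligand is thus one with no UMI of it among those 3000, and many such wells hold it at full depth. By all UMIs 408 of the 1155 Fb wells held Fgf10, 203 Fgf7 and 151 Fgf18, against 95, 41 and 30 by 3000 UMIs. Placed wells with a ligand were still somewhat deeper: medians were 24080 and 22610 UMIs with and without Fgf10, 27300 and 22650 with and without Fgf7, and 29170 and 22570 with and without Fgf18. With wells placed by 6000 UMIs, an alternative given below, they were 24440 and 23720 for Fgf10, 29030 and 23400 for Fgf7, and 32890 and 23540 for Fgf18. The 3 comparisons share most of their wells without the ligand and are not independent of each other. Wells with Fgf10 had more RNA of a few condensate genes. For Fgf10, 95 wells with it in 7 libraries were compared with 1060 without, and 0.976% of 11888 genes were higher and 49 genes (0.412%) lower in edgeR. Of 18 condensate markers tested, 5 were higher and 0 lower, with a median log2 fold change of 0.93 against 0.00 over all genes. The transcription factor Foxd1 had 43.0 ± 33.5 CPM in wells with Fgf10 and 4.65 ± 2.65 CPM in wells without (SD, n = 7; log2 fold change 3.15, SE 0.3797, adjusted p = 7.08e-06, higher in 7 of 7 libraries). Glis1, a zinc finger factor, rose by 1.55, Trps1, a repressor of the GATA family, by 1.20, the cell cycle inhibitor Cdkn1a by 1.13 and the hedgehog target Gli1 by 0.88. Cdkn1a was higher in 4 of 7 libraries only.

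These condensate genes were looked at without the 8 wells at condensate level of Fgf10. In the other 87 wells with Fgf10 Foxd1 still had 34.0 CPM pooled, against 4.29 CPM in the 1060 wells without, and Glis1 had 32.5 CPM against 13.2 CPM and Cdkn1a 77.4 CPM against 47.4 CPM. Trps1 and Gli1 in the 87 wells also lay above the 52.9 and 60.6 CPM of the 1060 wells. The defining condensate genes were low in both: Sox18 had 6.65 CPM in the 87 wells and 2.09 CPM in the 1060, and Cxcr4 4.69 and 3.03 CPM. Sox2 had 0 UMIs in the 87 wells and 18 in the 1060, too few to compare. The summed condensate list had a median of 5717 CPM in condensate wells, 1551 CPM in the 8 wells, 434.8 CPM in the 87 and 411.8 CPM in the wells without Fgf10. How far condensate-like wells named Fb account for the rise was not tested.

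Beyond the lists, the largest rises in wells with Fgf10 that held in 7 of 7 libraries were Fst, Syne1, Fndc1, Mtus1, Cpne5 and Prelp. Fst encodes follistatin, which binds activin, and had 127.5 ± 69.3 CPM in wells with Fgf10 and 35.6 ± 11.3 CPM in wells without (SD, n = 7; log2 fold change 1.82, adjusted p = 5.09e-06). Syne1, a protein that ties the nucleus to actin, rose by 1.63 and Prelp, a small leucine-rich proteoglycan, by 1.23. Among the largest falls were Spdl1 and Mad2l1 of the mitotic spindle checkpoint, the WNT target Sp5, the histocompatibility gene H2-K1 and the TNF receptor family member Tnfrsf19. Sp5 and H2-K1 (edgeR adjusted p of 0.0423 and 0.0426) were not called with DESeq2, nor without library 1, 3, 5, 6 or 7. Mad2l1 was not called without library 1 or 5. Of 18 cell cycle genes 3 were lower (Ccnb1, Ccna2, Birc5), and of 14 lower dermis markers 4 were higher (Cd34, Plagl1, Dpt, Gpc3). Among markers of other cells the mural gene Abcc9 was higher (1.13, adjusted p = 0.0406; 1 of 5 tested), with sums of 82.2 to 340.1 CPM in wells with Fgf10 and 131.8 to 186.4 CPM in wells without and Rgs5 at 0 in wells with it. Of 2 chondrocyte genes tested Sox9 was higher (1.03, adjusted p = 0.00829), and the 5 such markers summed to 24.8 to 162.9 CPM in wells with Fgf10 and 26.8 to 63.4 CPM in wells without, with Acan and Matn1 at 0 in wells with it. Their part in the result was not tested. Placing wells by 6000 UMIs, where 1.37% of genes were higher and 0.843% lower, ended the calls of Fst, Cpne5, Prelp, Spdl1 and Mad2l1, with the same direction in each of the largest rises and falls named here. There, condensate markers were higher in 5 of 18 and lower in 1 (Inhba), with Tbx18 called higher and Cdkn1a no longer called, and with a median of 0.39 against 0.01 over all genes, lower dermis markers higher in 7 of 14, and cell cycle genes lower in 6 of 18. Fgf7 itself, not called with wells placed by 3000 UMIs, was then higher in wells with Fgf10 (0.92, adjusted p = 0.0123, 7 of 7 libraries). The counts of genes were unstable: 56 higher and 26 lower without library 3, 69 and 23 without library 5, 26 lower without library 1, 75 lower without library 6, and 18 lower without the library block.

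Wells with Fgf7 had higher levels of most lower dermis markers and lower levels of most upper dermis markers than wells without it. In 5 libraries (3 to 7), 34 wells with Fgf7 were compared with 847 without, and 307 of 11542 genes were higher (2.66%) and 186 lower (1.61%, edgeR). Of 12 upper dermis markers, 8 were lower and 0 higher, with a median of −1.54 against −0.06 over all genes. Crabp1, a retinoic acid binding protein, had 478.8 ± 243 CPM in wells with Fgf7 and 2450 CPM in wells without (SD, n = 5; log2 fold change −2.40, SE 0.180, adjusted p = 3.40e-15). Wif1, a secreted WNT inhibitor, fell by 2.88 and Cyp26b1, which degrades retinoic acid, by 2.76. Of 14 lower dermis markers 9 were higher (median 0.92) and 2, Thy1 and Ly6a, were lower. Plagl1, an imprinted zinc finger gene, had 1560 ± 728 CPM in wells with Fgf7 and 503.7 ± 98.7 CPM in wells without (log2 fold change 1.61, adjusted p = 3.17e-13), and the imprinted growth factor Igf2 rose by 0.99. All 5 libraries went the same way for Crabp1, Wif1, Cyp26b1, Plagl1 and Igf2.

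The 6 largest rises with Fgf7 were Syt13, Fndc5, Angptl1, Cadm1, Igf1 and Aspn. Igf1, insulin-like growth factor 1, had 535.3 ± 244.9 CPM in wells with Fgf7 and 132.7 ± 39.7 CPM in wells without (SD, n = 5; log2 fold change 2.07, SE 0.185, adjusted p = 1.30e-12). Aspn, a small leucine-rich proteoglycan, rose by 1.96 and the angiopoietin-like gene Angptl1 by 2.11. The largest falls were Thbd, which had only 3 UMIs in wells with Fgf7 and was 15.6-fold lower by pooled counts (95% counting interval 5.31 to 75.6), Sfrp5, Trps1, Wif1, Cyp26b1 and Adrbk2. The WNT inhibitor Sfrp5 had 15.3 ± 3.08 CPM in wells with Fgf7 and 162.4 ± 25.6 CPM in wells without (log2 fold change −3.33, adjusted p = 4.44e-13). Trps1 fell by 3.03 here, and 5 of 18 condensate markers were lower and 0 higher, with 11 lower and 0 higher when wells were placed by 6000 UMIs. Cell cycle genes were lower in 2 of 18 (Mcm3, Rrm2), and in 14 of 18 at 6000 UMIs. Each of the 12 genes was called under every alternative run.

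In the FGF pathway, wells with Fgf7 had more Fgf18, 61.1 ± 33.9 CPM against 11.8 ± 2.83 CPM in wells without (SD, n = 5; log2 fold change 2.40, SE 0.362, adjusted p = 2.18e-06, 5 of 5 libraries). Of 6 ligand genes tested it was the only one called higher, and Fgf13, which acts inside the cell, was lower (−1.93, adjusted p = 0.0109). Fgf10 was not called (0.25, adjusted p = 0.824), but was with wells placed by 6000 UMIs (0.73, adjusted p = 0.0124, higher in 5 of 6 libraries), where Fgf10, Fgf12, Fgf18 and Fgf21 were higher and Fgf13 lower. Fgfr2, the receptor gene for Fgf7 and Fgf10, had 33.7 ± 19.8 CPM in wells with Fgf7 and 141.9 ± 19.7 CPM in wells without (log2 fold change −2.07, adjusted p = 2.21e-07). Of 15 targets and feedback genes 2 were higher and 3 lower. The target factors Etv5 and Etv1 fell by 1.98 and 2.47 and the cyclin gene Ccnd1 by 0.62, and the feedback genes Spry1 and Il17rd rose by 0.93 and 1.30. At 6000 UMIs 3 were higher and 5 lower. Markers of mural cells moved too: Kcnj8 had 139.2 ± 85 CPM in wells with Fgf7 and 31.1 ± 5.24 CPM in wells without, and Abcc9 rose by 1.49, 2 of 5 tested, with the 6 mural markers summing to 221.3 to 475.5 CPM in wells with Fgf7 and 149.4 to 186.8 CPM in wells without and none at 0. Their part in the result was not tested. The count of lower genes was 97 with DESeq2, and leaving out library 4 gave 202 higher and 84 lower. With wells placed by 6000 UMIs (77 wells with Fgf7, 6 libraries) there were 973 higher (8.34%) and 778 lower (6.67%), and of the upper dermis markers 7 were lower and 2 higher. The melanocyte gene Dct was lower with wells placed by 3000 UMIs (1 of 4 tested), the 6 such markers summing to 0.0 to 41.5 CPM in wells with Fgf7 and 15.5 to 259.2 CPM in wells without, with Mlana and Tyr at 0 in wells with it. Its part in the result was not tested.

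Wells with Fgf18 gave a like picture for lower dermis markers in the 2 libraries, 3 and 5, that held at least 5 of them, with 17 wells with it. Of 10450 genes 200 were higher (1.91%) and 82 lower (0.785%, edgeR). With 2 libraries, the p-values of this comparison rest mostly on the spread that edgeR shares across genes, and little on variation between these libraries. Their size is therefore not to be set against p-values from more libraries. Lower dermis markers were higher in 8 of 13 and lower in 1 (Thy1), with a median of 0.96 against −0.06 over all genes. Mfap5, a microfibril protein, had 129.1 and 357.9 CPM in wells with Fgf18 and 14.9 and 21.1 CPM in wells without (log2 fold change 3.83, SE 0.305, adjusted p = 3.00e-32). It led the rises together with the matrix protein tenascin C (Tnc, 2.76), C1qtnf3 (2.76), the guidance factor Sema3c (2.73), Myl9 (2.25) and Ptgis (2.24). The homeobox gene Hoxc10, Bmp4, Ubash3b, the endothelin receptor gene Ednra, Lix1 and Etv5 led the falls. Bmp4, a condensate ligand, had 0 and 11.1 CPM in wells with Fgf18 and 61.8 and 63.1 CPM in wells without (log2 fold change −2.93, adjusted p = 3.19e-05).

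Of 12 upper dermis markers 2 were lower with Fgf18 (Crabp1, Twist2) and 1, Dpp4, was higher. Fgf7 had 33.9 ± 10.2 CPM in wells with Fgf18 and 16.2 ± 0.815 CPM in wells without (SD, n = 2; 1.07, adjusted p = 0.494), and Fgf10 was not called either (0.32, adjusted p = 0.879). Fgfr2 fell by 1.25 (adjusted p = 0.00518) and the feedback phosphatase gene Dusp6 by 1.53. The sulfatase genes Sulf1 and Sulf2, which trim heparan sulfate, rose by 1.34 and 1.02. Mural markers again moved, with Kcnj8 and Acta2 called higher of 4 tested, sums of 304.6 and 704.2 CPM in wells with Fgf18 and 142.4 and 178.6 CPM in wells without, and Rgs5 at 0 in wells with it. Of 4 melanocyte genes Dct and Pmel were lower, the 6 such markers summing to 23.5 and 24.4 CPM in wells with Fgf18 and 32.9 and 257.5 CPM in wells without, with Mlana and Tyr at 0 in wells with it. Cell cycle genes were lower in 3 of 18 (Mcm3, Mcm5, Ccna2). The part of these markers in the result was not tested. Only 72 genes were higher and 6 lower with DESeq2, which did not call Ptgis, Bmp4, Ubash3b, Ednra, Lix1 or Etv5. With wells placed by 6000 UMIs (46 wells with Fgf18, 6 libraries) 524 genes were higher (4.46%) and 3.01% lower, and 7 of 12 upper dermis markers were lower. Condensate markers were lower in 9 of 18 there, against 1 of 14 with wells placed by 3000 UMIs, and Fgf7 was higher (2.04, adjusted p = 1.69e-05, 6 of 6 libraries).

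**Figure D4:**
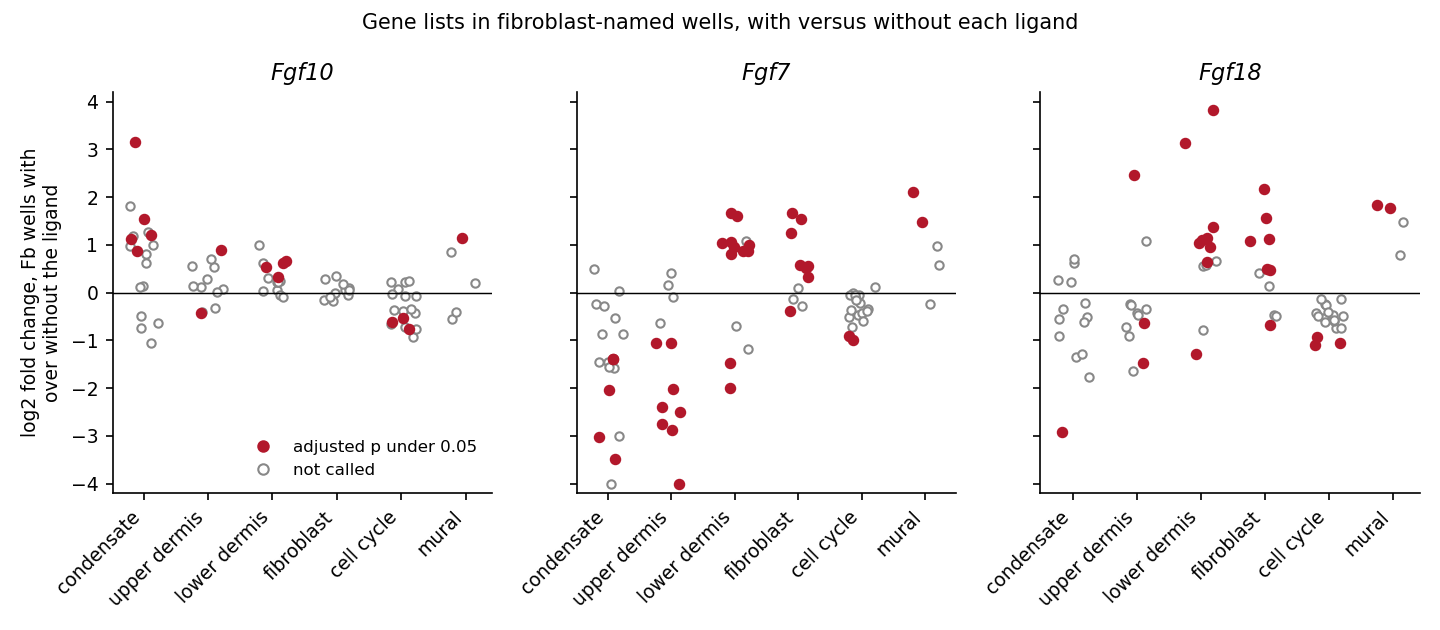
Log2 fold change (y axis) of the tested members of 6 marker lists (x axis) in Fb wells with over Fb wells without Fgf10, Fgf7 or Fgf18. Each point is a gene, red where edgeR's adjusted p was under 0.05 and open where it was not, and fold changes beyond 4 in size are drawn at 4. With Fgf7 all 8 called upper dermis genes lie below 0 and 9 of 11 called lower dermis genes above 0.

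The genes whose level was most like that of each ligand were found over 30 sums of populations within libraries 1 to 8, by Pearson's r of log2(CPM + 10), among 7190 genes of at least 20 CPM. The sums share libraries and differ in depth, so r is a description. For Fgf10 they were 2700081O15Rik (0.850), the endothelin gene Edn3 (0.835), the mesenchymal homeobox gene Prrx1 (0.824), Cyp26b1 (0.821) and Foxd1 (0.805). For Fgf7 they were Cthrc1 (0.917), Svep1 (0.910), the collagen gene Col1a2 (0.902), Mest (0.897) and Tmem26 (0.872). For Fgf18 they were Col1a2 (0.903), the growth factor gene Ptn (0.882), Mest (0.878), Svep1 (0.877) and Cthrc1 (0.875), so that 4 of 5 genes also stood in the list for Fgf7. Between the ligands r was 0.943 for Fgf7 with Fgf18, −0.867 for Fgf10 with Fgf7 and −0.835 for Fgf10 with Fgf18. Most of the 30 sums are of condensate wells, and nearly all of those held no UMI of Fgf7 or of Fgf18. The r values between ligands, and the lists of most alike genes, therefore largely restate the split between condensate and Fb wells. Whether the genes also vary together within either group was not tested by r.

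The rest of the FGF pathway was compared between condensate and Fb wells to set the ligands in context. Condensate wells had more of 3 FGF receptor genes and of most feedback genes that were called, and a mixed set of heparan sulfate genes. Of 22 FGF ligands 20 were in the table and 7 had the 50 UMIs needed for the test. Beside the 3 ligands described, Fgf12, which acts inside the cell, and the endocrine Fgf21 were called lower (edgeR adjusted p of 0.0182 and 0.0334), with 0 UMIs of each in condensate wells of libraries 1 to 7, against 127 and 94 UMIs in Fb wells. That makes them at least 1.83-fold and 1.36-fold lower, and the call of Fgf21 was lost without any of libraries 2 to 7 and that of Fgf12 without library 5 or 6. Fgf9 (−1.68, adjusted p = 0.328), with 1 UMI in condensate wells, and Fgf13 (0.09, adjusted p = 0.876) were not called.

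Of 5 receptor genes tested 3 were higher and 0 lower, beside 10.6% higher and 13.5% lower over all genes. Fgfr1, the main mesenchymal receptor, had 843.3 ± 191 CPM in condensate wells and 478.1 ± 28.1 CPM in Fb wells (SD, n = 7; log2 fold change 0.72, SE 0.115, adjusted p = 6.02e-07). Fgfr2 had 211 ± 54.3 CPM in condensate wells and 137.7 ± 16.3 CPM in Fb wells (0.56, SE 0.150, adjusted p = 0.00313). Fgfrl1, a receptor without a kinase, had 51.3 ± 24.98 CPM in condensate wells and 16.7 ± 3.64 CPM in Fb wells (1.42, SE 0.303, adjusted p = 0.000171). None of the 3 was called in the libraries outside the shared run, and Fgfr2 there was 0.12 (adjusted p = 0.911). The UMIs do not tell the splice forms of the receptors apart.

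Of 15 targets and feedback genes tested 7 were higher and 1 lower, with a median of 0.82 against −0.03 over all genes. Spry1, an inhibitor of the pathway, had 396.8 ± 222.2 CPM in condensate wells and 156.2 ± 23.7 CPM in Fb wells (SD, n = 7; log2 fold change 1.11, adjusted p = 5.04e-09), and its relative Spred1 rose by 1.23. The phosphatase genes Dusp4 and Dusp6 rose by 2.84 and 1.00, the receptor antagonist Il17rd by 1.80 and the membrane protein Flrt3 by 1.04. With wells thinned to 3000 UMIs Dusp6 was 0.35 (adjusted p = 0.652). Spry2 fell by 0.88. The target factors Etv1, Etv4 and Etv5 were not called (0.27, 0.66 and 0.23). Of 20 heparan sulfate genes 5 were higher and 9 lower. The core proteins Gpc2 and Sdc1 rose by 2.71 and 1.93. Hs6st2, a sulfotransferase, fell by 3.67, the core proteins Gpc6 and Gpc4 by 1.92 and 1.86, and the sulfatase Sulf2 by 1.64. Thinning to 3000 UMIs ended the calls of Hs6st2, Gpc6 and Gpc4.

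Markers of other cells in the same comparison were as follows. The 5 endothelial markers tested included 1 higher gene (Kdr), and the 7 markers summed to 13.1 to 105.6 CPM in condensate wells and 9.28 to 19.9 CPM in Fb wells, with Emcn at 0 in condensate wells. Mural markers were lower in 3 of 5, with sums of 51.9 to 144.7 CPM in condensate wells and 136.8 to 187.8 CPM in Fb wells and none at 0. Keratinocyte, immune, Schwann and muscle markers had no called gene. Of 4 melanocyte genes 2 were lower (Dct, Pmel), of 2 adipocyte genes 1 (Lpl) was lower, and of 2 chondrocyte genes Sox9 was higher and Col9a1 lower. Upper dermis markers were higher in 6 of 12 and lower in 3, and lower dermis markers lower in 11 of 14 and higher in 1. Of cell cycle genes 14 of 18 were lower in condensate wells and 0 higher. Their part in the differences of the ligands was not tested.

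**Figure D5:**
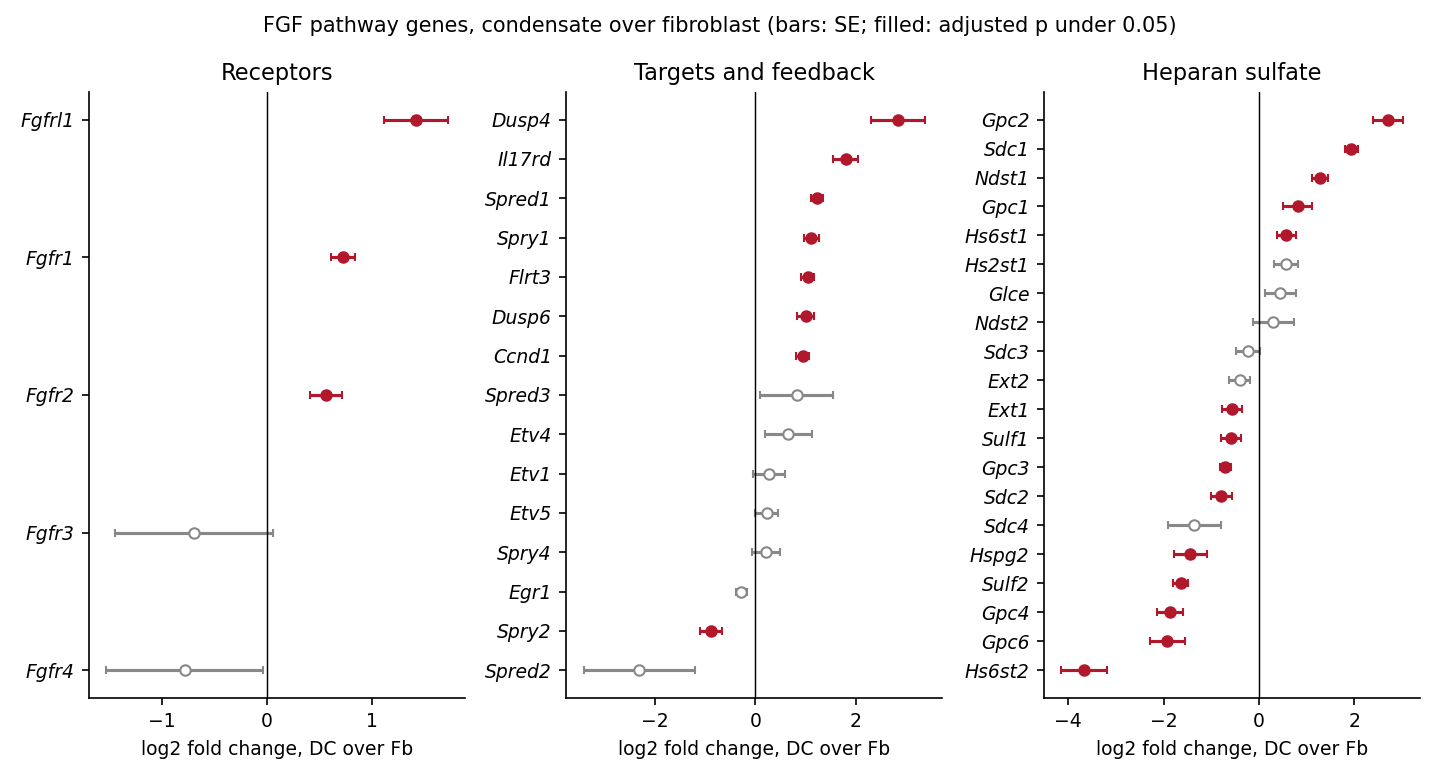
Log2 fold change in condensate over Fb wells (x axis) for the tested FGF receptors, target and feedback genes, and heparan sulfate genes. Bars are standard errors over 7 libraries and filled red points have an adjusted p under 0.05 in edgeR. Receptors and feedback genes lie mostly above 0 and heparan sulfate genes on both sides.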

How the data were processed

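The authors deposited expected counts (estimated counts) per gene and well. The values show a correction for collisions among 4096 possible UMIs: 0 of 7480233 values above 0 lay over 0.01 from its formula. Rounding to whole numbers altered 13.5% of these values. The design had assumed whole counts. The submitters' processing notes list mm10, TopHat2 2.0.3 and Bowtie2, and also Cufflinks 2.1.1 and BWA 0.6.2-r126, without saying what each did. The 12 bulk samples were not analysed here. Spike-in rows (86 of 20370) stayed out of totals. All 1967 well names differ. No doublet caller was run.

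UMIs were summed per library and population and tested with edgeR 4.0.16 in R 4.3.3 (glmQLFit and glmQLFTest, library as block, Benjamini-Hochberg adjustment, calls at 0.05, genes of at least 50 UMIs). Scaling was TMM, computed on genes that pass filterByExpr, which have enough UMIs in the smallest sums. Sums needed 5 wells, or 2 for stages. DESeq2 was 1.42.0 and Python 3.11.15. The fits were tested on simulated data. Libraries 3, 5, 6 and 7 carry the same run name in the labels. A library pairs its populations because they share its wells.

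The 3 genes, the lists and the tests were chosen with earlier results of these data known. Named genes are the members, the called pathway genes with the biggest changes (up to 6 per list), the 5 most alike per member, and the 6 biggest rises and falls per ligand comparison among genes with mean log2 CPM of 5 or more that moved one way in every library. A gene that this rule names is not reported here. Further list members were named after their values were seen. Placing wells by all their UMIs was also added then.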

Additional observations from a re-analysis of the deposited data

Results flagged for a closer look

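In 9 of 14 groups of libraries the highest library stood apart by Dixon's test. Its chance rate of about 1 of 20 groups holds for normal values and separate groups. It does not hold for groups mostly at 0 or for groups that share wells, as here. Fgf10 had 837.9 CPM in the DC0 wells of library 1, from 21 UMIs, and 687.0 CPM in all its condensate wells, from 62 UMIs. The other flags are of genes at 0 in the remaining libraries, or nearly so. Fgf7 had 5.42 CPM in the DC0 wells of library 8 (8 UMIs), 6.26 CPM in the DC1 wells of library 9 (9 UMIs) and 2.94 CPM in the DC2 wells of library 8 (4 UMIs). Fgf18 had 5.22 CPM in the DC0 wells of library 5 and 2.63 CPM in all its condensate wells, both from the same UMI. It had 1.39 CPM in the DC1 wells of library 9 (2 UMIs) and 2.21 CPM in the DC2 wells of library 8 (3 UMIs).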

How the results depend on the processing

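Fgf10 stayed higher in condensate wells and in each stage under every alternative run. Few condensate wells per library limit the rest, and the causes of the changes below were not tested. In libraries outside the shared run the fitted values were −7.71 for Fgf7 and −7.22 for Fgf18 in condensate wells; for Fgf7 they were −6.61 in DC0, −6.84 in DC1 and −7.40 in DC2, and for Fgf18 −7.10, −6.57 and −5.56, none of them called. Within the shared run Fgf18 was not called in DC0 (−2.67) or DC2 (−7.43). DESeq2 gave Fgf7 −2.20 in DC0, −2.60 in DC1 and −2.07 in DC2, and Fgf18 −1.38 in DC2, with no call. With at least 5 wells per sum Fgf7 (−7.68 in DC0, −8.16 in DC1) and Fgf18 (−3.42, −7.91 and −2.91 in DC0, DC1 and DC2) were not called. Fitted values of a gene with 0 UMIs are no bounds.

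Leaving out a library in turn gave Fgf10 3.13 to 3.35, Fgf7 −8.44 to −8.24 and Fgf18 −7.87 to −4.05 in condensate wells. Fgf18 ranged from −7.89 to −2.89 in DC0 and from −7.04 to −3.04 in DC2. The Fgf10 difference of DC1 minus DC0 ranged from −0.12 to 0.099, and was 0.0080 with RLE scaling, 1.07 with at least 5 wells per sum, 0.26 outside the shared run and 1.32 with thinning. DC2 minus DC1 was 0.17 within the shared run. No such difference between stages passed.

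Without the replicate block of the library, the 3 ligands gave 3.26, −8.34 and −4.24 for Fgf10, Fgf7 and Fgf18 in condensate wells (edgeR adjusted p of 2.97e-13, 1.06e-05 and 0.000164), and no call of a ligand changed. Genes lower with Fgf10 were then 0.151% of those fitted, against 0.412% with it.

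Shares of fitted genes that were called moved most, as higher and lower. With Fgf10 they were 1.14% and 0.614% with no filter, and 0.843% were lower with wells placed by 6000 UMIs. Leaving out a library gave 0.484% to 1.29% higher and 0.199% to 0.648% lower. With Fgf7 they were 8.34% and 6.67% at 6000 UMIs, 0.840% lower with DESeq2, and 1.78% to 2.39% higher and 0.742% to 1.48% lower without a library. With Fgf18 they were 0.689% and 0.0574% with DESeq2, and 4.46% and 3.01% at 6000 UMIs. Placing wells by all UMIs, an alternative chosen after seeing the data, gave 5.23% and 3.74% for Fgf10, 16.4% and 15.1% for Fgf7 and 14.2% and 12.6% for Fgf18. Some alternatives gave no value: thinning left Fgf7 and Fgf18 under 50 UMIs, filterByExpr kept Fgf10 alone among the ligands in the stage model, and the Fgf18 comparison has 2 libraries, and leaving out either leaves no spread to test.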
